A study of Mus musculus with 62 samples.

Results

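White fat of mice that had carried non-cachectic melanoma cells (NCAC) for 2 weeks was compared with white fat of mock-injected mice (Con, called mock here) of the same week. The libraries were chosen by the arm and week in their sample descriptions, which gave 5 NCAC and 5 mock libraries, 10 of the 62 in the series. The series follows white adipose tissue by RNA sequencing as cachexia, the wasting of fat and muscle in cancer, develops. It also has an arm of melanoma cells that cause cachexia (CAC) and later times of 4, 6 and 8 weeks after injection, which are used here for comparison only. All mice were female and 2 months old. The series text names NCI Ath/nude mice, which lack a normal T cell compartment, but the samples' strain tags say C57BL6/J. The treatment tag reads cachectic melanoma cells for every sample, mock included, so arm and week were read from the descriptions. The sample titles carry the same arm and week. No genetic change, drug or further treatment is named for any of these groups. The sources used here give neither the melanoma lines, nor the fat depot, nor the hour of day at which tissue was taken. The labels call the replicates biological but do not tie them to litters, cages or days, so p-values measure the spread between these samples only.

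Most cells of the body run a circadian clock, a feedback loop of transcription factors that repeats about once a day. The activators BMAL1 (gene Arntl) and CLOCK, or its close relative NPAS2, bind E-box motifs and switch on the genes of their own repressors, the PER and CRY proteins, and of the REV-ERB receptors (Nr1d1 and Nr1d2). REV-ERB in turn represses Arntl, Npas2, Clock, Nfil3 and Cry1, and the PAR bZIP factors DBP, TEF and HLF carry the rhythm to further genes through D-box motifs. In peripheral mouse tissues Nr1d1 peaks first, Dbp and Per3 after it, Per1, Per2 and Ciart next, Cry1 and Nfil3 later, and Arntl and Npas2 last, so that each transcript stands for a stretch of the day. White fat has such a clock, which paces lipid metabolism and the release of leptin.

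The promoter windows of 6 clock genes are shown first, because the transcripts described below are grouped by the elements through which they are known to be controlled. The windows are from RefSeq on GRCm38.p6, each 300 bases long (250 before and 50 after an annotated start), written 5′ to 3′ on the strand of the gene. Capitals mark the E-box CACGTG in Ciart (chr3:95882179-95882478, minus strand), Per1 (chr11:69098699-69098998, plus strand) and Cry1 (chr10:85185005-85185304, minus strand), the D-box TTATGTAA in Per3 (chr4:151044616-151044915, minus strand), and the REV-ERB and ROR element, searched as TAGGTCA and TGGGTCA, in Arntl (chr7:113207261-113207560, plus strand) and Nfil3 (chr13:52980990-52981289, minus strand).
Ciart: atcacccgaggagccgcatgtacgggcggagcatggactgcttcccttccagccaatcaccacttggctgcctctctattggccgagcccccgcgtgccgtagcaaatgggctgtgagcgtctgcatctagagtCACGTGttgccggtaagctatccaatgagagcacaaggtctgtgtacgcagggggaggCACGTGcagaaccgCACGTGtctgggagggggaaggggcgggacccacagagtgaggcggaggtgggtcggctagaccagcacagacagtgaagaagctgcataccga
Per1: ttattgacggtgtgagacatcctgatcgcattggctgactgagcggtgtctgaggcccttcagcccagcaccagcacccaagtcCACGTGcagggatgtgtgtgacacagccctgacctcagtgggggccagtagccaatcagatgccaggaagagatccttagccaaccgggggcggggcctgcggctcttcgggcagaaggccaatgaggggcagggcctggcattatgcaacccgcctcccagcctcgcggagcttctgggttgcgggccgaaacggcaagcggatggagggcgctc
Cry1: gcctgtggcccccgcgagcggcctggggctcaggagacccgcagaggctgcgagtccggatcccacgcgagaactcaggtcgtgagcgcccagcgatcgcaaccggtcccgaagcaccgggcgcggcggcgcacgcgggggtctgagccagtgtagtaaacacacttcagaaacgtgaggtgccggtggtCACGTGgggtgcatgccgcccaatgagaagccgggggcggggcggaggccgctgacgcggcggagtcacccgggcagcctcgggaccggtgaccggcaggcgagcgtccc
Per3: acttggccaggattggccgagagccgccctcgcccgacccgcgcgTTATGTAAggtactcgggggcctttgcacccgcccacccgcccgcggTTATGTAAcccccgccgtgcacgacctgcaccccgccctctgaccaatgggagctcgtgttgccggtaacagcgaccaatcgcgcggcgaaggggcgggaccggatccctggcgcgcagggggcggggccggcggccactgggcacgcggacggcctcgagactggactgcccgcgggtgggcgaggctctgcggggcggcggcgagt
Arntl: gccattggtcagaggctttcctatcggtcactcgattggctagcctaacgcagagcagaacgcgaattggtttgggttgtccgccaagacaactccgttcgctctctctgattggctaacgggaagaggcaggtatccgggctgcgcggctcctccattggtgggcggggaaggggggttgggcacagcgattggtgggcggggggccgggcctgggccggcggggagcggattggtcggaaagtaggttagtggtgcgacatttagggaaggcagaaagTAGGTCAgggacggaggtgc
Nfil3: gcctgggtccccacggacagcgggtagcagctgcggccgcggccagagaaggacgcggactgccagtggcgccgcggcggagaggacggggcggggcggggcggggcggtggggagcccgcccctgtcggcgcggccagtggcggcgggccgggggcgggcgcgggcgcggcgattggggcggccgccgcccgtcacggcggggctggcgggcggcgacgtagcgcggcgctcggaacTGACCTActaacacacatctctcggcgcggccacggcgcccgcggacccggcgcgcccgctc
Both strands were searched, and none of the 3 kinds of motif overlapped another in these windows. The Ciart window holds 3 E-boxes, whose first bases lie 116, 58 and 44 bases before the start, while Per1 has 1 at 166 and Cry1 has 1 at 60 bases. Per3 has D-boxes at 205 and 158 bases before its start, Nfil3 has its element at 12 bases before, and in Arntl the element begins 30 bases past the start. Of 32851 RefSeq mouse windows of this length, 7.15% hold the E-box, 0.938% the D-box and 6.45% the REV-ERB and ROR element. Among the 22 clock genes with a window, the E-box was present in 5 (Bhlhe41, Ciart, Cry1, Per1 and Tef), the D-box in 2 (Per3 and Timeless) and the REV-ERB and ROR element in 2 (Arntl and Nfil3). These counts are per gene, over 31 windows, and so are not on the same footing as the shares per window. Per1 and Arntl each have another window, not shown, with 0 of these motifs. A match describes the letters of the window and is not a measured binding site. The lists used below follow known control and not these windows. Per3 is listed as E-box-driven, though its window holds no E-box. Cry1 is listed as repressed by REV-ERB, though its window holds no REV-ERB and ROR element.

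Values are TPM (a share of all transcripts), a level corrected for transcript length, and changes are log2 differences of TPM + 1 from limma, NCAC minus mock, with their standard error. A gene was to be called at a Benjamini-Hochberg adjusted p under 0.05 over all 14574 genes tested, and 0 genes (0%) were called. The lowest adjusted p was 0.9997, so this value or a higher one belongs to every gene named below, and the calls rest on that test alone. Beside single genes stands the unadjusted two-sided p of an exact permutation test over the 252 splits of 5 against 5 libraries, whose smallest possible value is 0.00794. An unadjusted limma p under 0.05, the measure behind every count of genes past that value here, was reached by 234 genes, 1.61% of those tested, with 120 higher (0.823%) and 114 lower (0.782%) in NCAC fat. This share is below the 5% that chance alone gives on average. The 5 NCAC libraries lay wholly above or wholly below the 5 mock libraries for 43 genes (0.295%), above for 29 (0.199%) and below for 14 (0.0961%). Groups without overlap always give the smallest exact p, so both express the same fact. If the groups did not differ, that p would also be the chance of no overlap, and 0.295% lies below it. A log2 change above 0 was found in 47.2% of genes, the median was −0.01, and the middle 95% of genes lay between −0.39 and 0.43.

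Clock genes were frequent at the head of this list. Of 27 clock genes tested (28 were listed and Rorb was too low), 14 (51.9%) had an unadjusted p under 0.05, against 1.61% of all genes, with 11 higher and 3 lower in NCAC fat. For 7 of the 27 the groups did not overlap, against 0.295% of all genes, and for each of these NCAC lay above mock: Per1, Per2, Hlf, Ciart, Wee1, Cry1 and Nfil3. Clock genes made up 3 of the 10 genes with the lowest p, 7 of the lowest 20 and 10 of the lowest 50. The 3 with the lowest p lie on GRCm38, by the GENCODE M21 annotation, at chr7:110122046-110143286 on the plus strand (Wee1), chr10:85131700-85185064 on the minus strand (Cry1) and chr1:91415982-91459324 on the minus strand (Per2). The 27 genes are parts of 1 feedback loop, so their counts are not counts of independent events. The clock lists were also chosen with earlier results of these data known, so these shares are a description and not a test. When limma was allowed to weight each library by its own scatter, 230 of 14574 genes passed the adjusted threshold, 110 higher and 120 lower in NCAC fat. They included 7 of the 27 clock genes (Wee1, Nfil3, Cry1, Per2, Per1, Ciart and Nr1d1). Those weights ran from 0.275 for mock replicate 1 to 12.9 for mock replicate 4. Every other mock library had a weight of at most 0.683, so the weighted mock mean rests mostly on mock replicate 4.

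**Figure D1:**
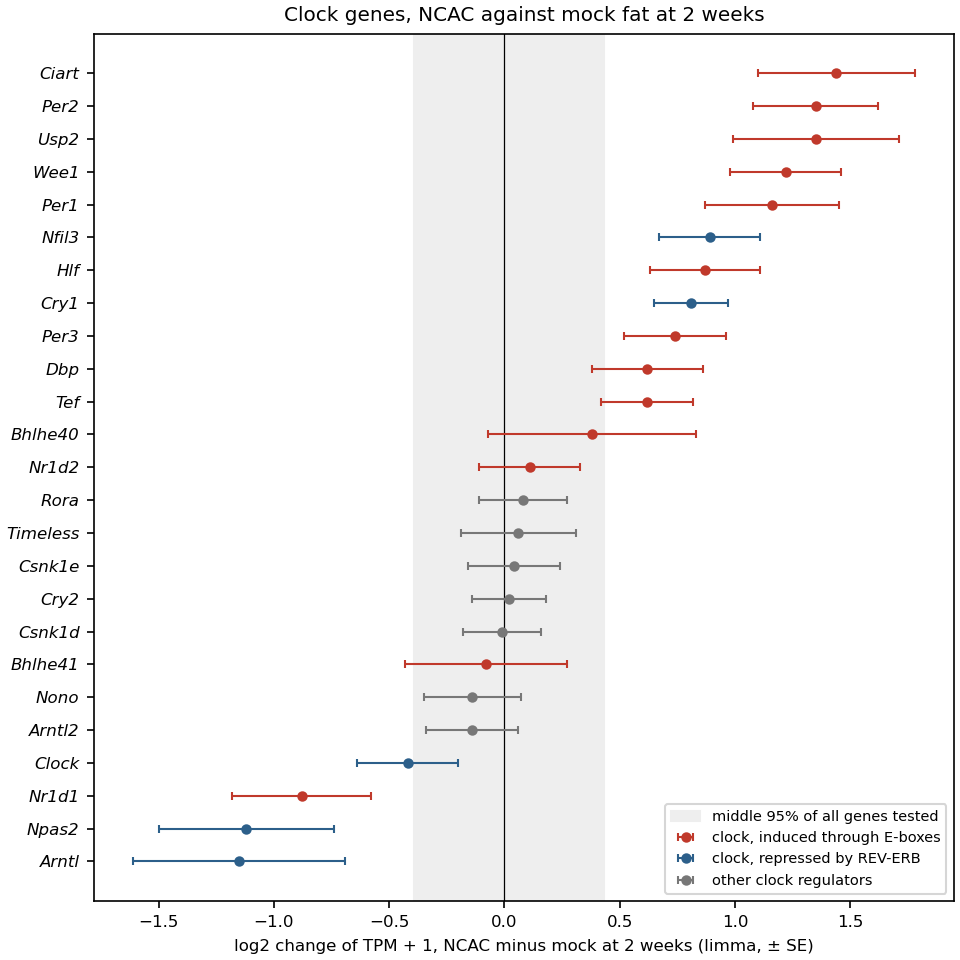
Log2 change of TPM + 1 (x axis; point, limma estimate; bar, ± SE) of 25 clock genes, NCAC minus mock at 2 weeks, coloured by list, with the middle 95% of all genes tested as a grey band. Ciart, Per2, Usp2, Wee1 and Per1 have changes from 1.16 to 1.44, Arntl and Npas2 lie at −1.15 and −1.12, Nr1d1 lies at −0.88, and 15 of the 25 fall outside the band.

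Arntl, the gene of the activator BMAL1, was at 1.15, 0.85, 0.528, 1.42 and 0.877 TPM in NCAC fat and at 13.8, 4.51, 2.85, 1.5 and 0.864 TPM in mock fat. All NCAC libraries were low, while mock libraries covered the range from such low levels upward, so the groups overlapped (log2 change −1.15, SE 0.46, exact p = 0.0397). Npas2, which encodes a partner of BMAL1, showed the same layout, with 0.0497, 0.196, 0.0861, 0.3 and 0.152 TPM in NCAC fat and 5.15, 2.92, 1.23, 0.467 and 0.268 TPM in mock fat (log2 change −1.12, SE 0.38, exact p = 0.0159). Clock, whose product is the usual partner of BMAL1, was at 4.69, 8.41, 7.15, 9.85 and 5.94 TPM in NCAC fat and at 14.7, 11.4, 8.2, 7.95 and 7.82 TPM in mock fat, a difference of −0.42 on the log2 scale (SE 0.22, exact p = 0.111). For Npas2 the size of the change depends on the constant added before the logarithm, since NCAC levels lie far below 1 TPM, and it ranged from −2.47 to −0.51 over 21 other settings. Arntl ranged from −1.61 to −0.67 over the same settings and had an unadjusted p under 0.05 in 16 of them.

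Nr1d1, the gene of the repressor REV-ERB alpha and the earliest of the daytime peaks, was at 41.6, 65.9, 94.9, 108 and 72.9 TPM in NCAC fat and at 120.3, 213, 133, 171 and 76.4 TPM in mock fat. Only mock replicate 5 fell within the NCAC range (log2 change −0.88, SE 0.30, exact p = 0.0397). Its paralog Nr1d2, whose product REV-ERB beta shares the same targets, averaged 52.4 ± 16.9 TPM in NCAC fat and 46.8 ± 6.94 TPM in mock fat (SD over the 5 libraries of a group, as at every such mean here), with a log2 change of 0.11 (SE 0.22, exact p = 0.675). Nr1d1 was the one E-box-driven gene of the 13 listed that was lower at an unadjusted p under 0.05, beside 9 that were higher. Levels of Arntl, Npas2 and Nr1d1 were thus all lower on average in NCAC fat.

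The period genes encode the main repressors that build up after the activators. Per2 was at 27.1, 26.1, 23.2, 31.8 and 25.8 TPM in NCAC fat and at 9.13, 11.3, 4.17, 11.9 and 16.9 TPM in mock fat, a log2 change of 1.35 (SE 0.27, exact p = 0.00794). Per1 was at 31.8, 41.3, 36.4, 43.7 and 47.2 TPM in NCAC fat and at 14.6, 30.2, 7.64, 20.2 and 21.9 TPM in mock fat, a log2 change of 1.16 (SE 0.29, exact p = 0.00794). For both genes every NCAC library exceeded every mock library. Per3 reached 30.9 ± 5.02 TPM in NCAC fat and 18.7 ± 5.92 TPM in mock fat, and the lowest NCAC library (23.5 TPM) lay below the highest mock library (25.1 TPM; log2 change 0.74, SE 0.22, exact p = 0.0159). Ciart, which encodes a further repressor of CLOCK and BMAL1 and whose window above holds the 3 E-boxes, was at 9.29, 8.37, 15.1, 20.2 and 16.6 TPM in NCAC fat and at 2.25, 5.02, 2.07, 6.41 and 8.02 TPM in mock fat (log2 change 1.44, SE 0.34, exact p = 0.00794). The Ciart groups did not overlap, with 8.37 TPM as the lowest NCAC value and 8.02 TPM as the highest mock value.

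Cry1 and Nfil3 are activated like the period genes or through D-boxes but are also repressed by REV-ERB, which delays their peaks. Cry1, the gene of the late repressor cryptochrome, was at 11.6, 12.5, 9.66, 13.1 and 12.1 TPM in NCAC fat and at 6.26, 5.65, 4.89, 6.45 and 8.57 TPM in mock fat. Nfil3, whose product competes with DBP, TEF and HLF for D-boxes, was at 11.7, 19.4, 12.5, 13.8 and 13.5 TPM in NCAC fat and at 10.3, 9.84, 6.22, 4.39 and 6.3 TPM in mock fat. In both genes all NCAC libraries were above all mock libraries, with log2 changes of 0.81 (SE 0.16, exact p = 0.00794) for Cry1 and 0.89 (SE 0.22, exact p = 0.00794) for Nfil3. The REV-ERB-repressed list of 5 was therefore split, with Cry1 and Nfil3 higher, Arntl and Npas2 lower, and a median log2 change of −0.42. Cry2, the second cryptochrome, which cycles weakly, averaged 29.8 ± 3.52 TPM in NCAC fat and 29.7 ± 6.49 TPM in mock fat.

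**Figure D2:**
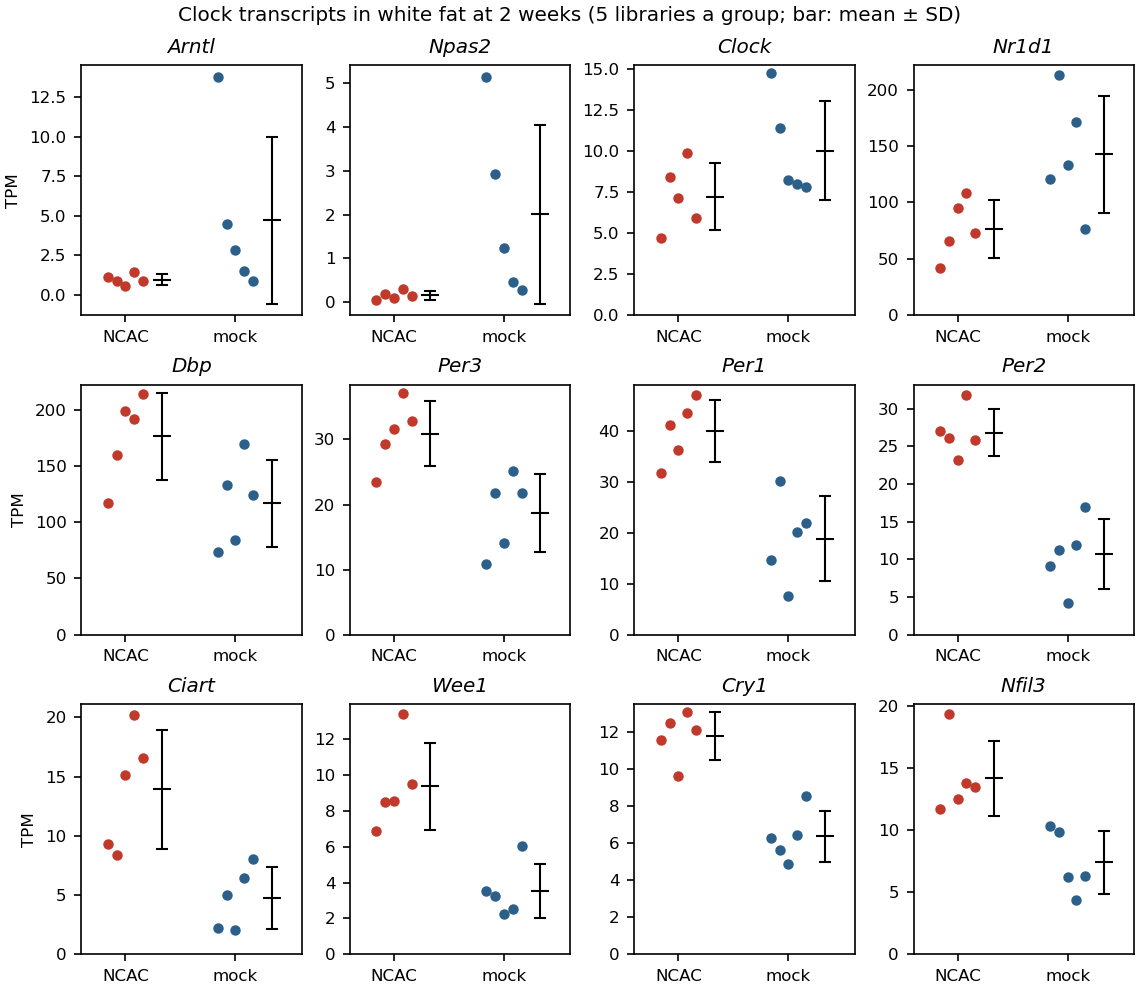
TPM (y axes, linear) of 12 clock transcripts in each of the 5 NCAC (red) and 5 mock (blue) libraries at 2 weeks, with mean ± SD as a black bar beside the points. NCAC and mock libraries do not overlap for Per1, Per2, Ciart, Wee1, Cry1 and Nfil3, and for Arntl and Npas2 the mock libraries spread widely while the NCAC libraries stay at or below 1.42 and 0.3 TPM.

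The PAR bZIP output factors had log2 changes between 0.62 and 0.87. Dbp was at 117, 159.9, 199, 192 and 214 TPM in NCAC fat and at 73.5, 133, 84.2, 169 and 124 TPM in mock fat, with overlapping groups (log2 change 0.62, SE 0.24, exact p = 0.0635). Dbp is counted among the 14 by its limma p, while its exact p misses 0.05. Tef averaged 98.7 ± 13.0 TPM in NCAC fat and 65.5 ± 19.1 TPM in mock fat, also with overlap (log2 change 0.62, SE 0.20, exact p = 0.0159). Hlf was at 11.5, 16.1, 10.5, 14.5 and 14.4 TPM in NCAC fat and at 5.39, 7.25, 3.65, 10.2 and 9.31 TPM in mock fat. Its lowest NCAC library (10.5 TPM) lay just above its highest mock library (10.2 TPM; log2 change 0.87, SE 0.24, exact p = 0.00794).

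Other E-box-driven genes gave the lowest p-value of the comparison and also some of the smallest changes. Wee1, a kinase that holds cells before mitosis and ties the cell cycle to the clock, was at 6.9, 8.48, 8.56, 13.4 and 9.53 TPM in NCAC fat and at 3.55, 3.26, 2.22, 2.55 and 6.03 TPM in mock fat. The groups did not overlap, and Wee1 had the lowest limma p of all genes tested (log2 change 1.22, SE 0.24, exact p = 0.00794). Usp2, which encodes a ubiquitin protease, was at 30.5, 24.6, 18.2, 18.6 and 28.8 TPM in NCAC fat and at 6.26, 5.83, 4.76, 11.3 and 23.2 TPM in mock fat. Mock replicate 5 alone reached the NCAC range of Usp2 (log2 change 1.35, SE 0.36, exact p = 0.0238). Bhlhe40 and Bhlhe41, the genes of the DEC repressors, had overlapping groups with log2 changes of 0.38 (SE 0.45) and −0.08 (SE 0.35). Of the 9 further regulators tested, 0 had an unadjusted p under 0.05. The 7 described here, among them the receptor Rora and the kinases Csnk1d and Csnk1e that mark PER proteins for turnover, had log2 changes from −0.14 to 0.08. Several of these further regulators are known to cycle little or not at all.

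Mock libraries differed among themselves along the same genes. Mock replicate 1, with the highest Arntl (13.8 TPM), also had the highest Npas2 (5.15 TPM) and Clock (14.7 TPM). Mock replicate 5, with the lowest Arntl (0.864 TPM), had the highest mock values of Per2 (16.9 TPM), Usp2 (23.2 TPM), Wee1 (6.03 TPM) and Cry1 (8.57 TPM) and the lowest of Nr1d1 (76.4 TPM). It was thus the mock library nearest to the NCAC libraries for each of these genes. The clock balance, the mean log2 level of 8 genes of the E-box side (Dbp, Tef, Hlf, Per2, Per3, Nr1d1, Nr1d2 and Ciart) minus that of Arntl, Npas2, Clock, Nfil3 and Cry1, describes where a library stands. It was 2.8, 2.85, 3.27, 3.2 and 3.25 in NCAC fat and 1.07, 2.22, 1.95, 3.16 and 2.93 in mock fat. The NCAC libraries all lay high, and 2 of the mock libraries lay among them.

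The NCAC libraries also differed little from each other. The SD of the clock balance was 0.23 in NCAC fat and 0.83 in mock fat at 2 weeks, and the NCAC value was the smallest of the 12 groups, whose median SD was 0.85 and whose largest was 1.64. Mock fat at 6 weeks was nearly as narrow (SD 0.28), followed by NCAC fat at 8 weeks (0.41). On the log2 scale the SD of Per2 was 0.16 in NCAC fat and 0.67 in mock fat, that of Arntl 0.25 and 1.16, and that of Npas2 0.12 and 0.96, and for each of these 3 genes too NCAC at 2 weeks had the smallest SD of the 12 groups. For Per2 the next smallest SD was close, at 0.19 in CAC fat at 6 weeks. For Arntl and Npas2 a small SD goes with levels near the lower end of the scale. Of the 27 clock genes, 23 had a smaller SD in NCAC fat than in mock fat, against 51.1% of all genes tested. These are descriptions without a test. With no hour of collection to go by, a difference in hour between or within groups cannot be told apart from a difference in the tissue clock.

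**Figure D3:**
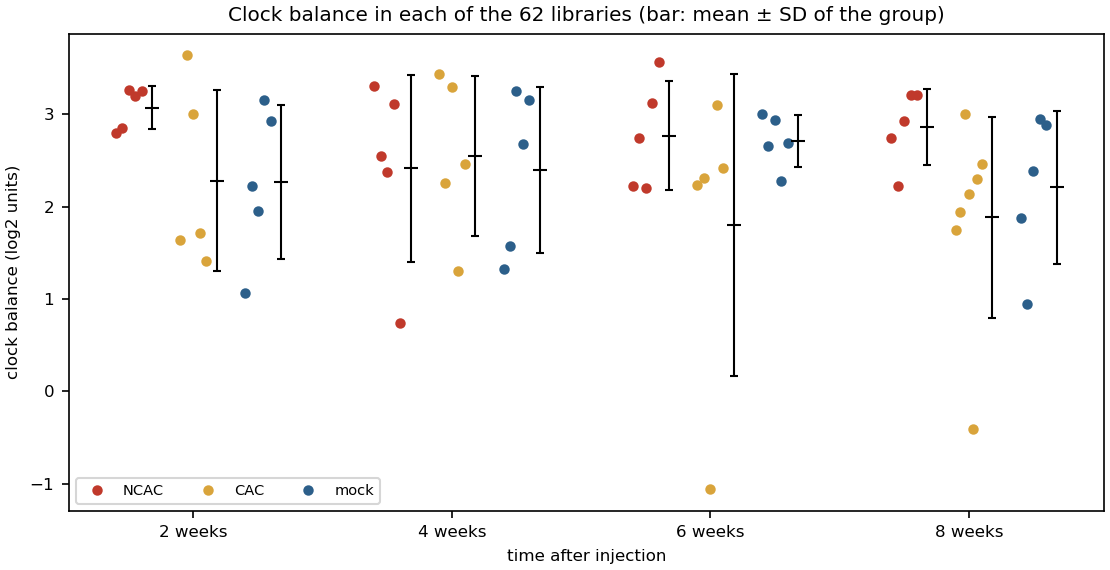
Clock balance (y axis, log2 units) of each of the 62 libraries by week after injection and arm, NCAC (red), CAC (yellow) and mock (blue), with mean ± SD of the group as a black bar. NCAC at 2 weeks has the narrowest group (2.80 to 3.27), mock at 2 weeks runs from 1.07 to 3.16, and the 2 lowest libraries are CAC libraries at 6 and 8 weeks (−1.06 and −0.41).

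At the later weeks NCAC fat did not stand apart from mock in this way. The count of clock genes without overlap between NCAC and mock was 7 of 27 at 2 weeks and 0 of 27 at 4, 6 and 8 weeks, where 0.144%, 0.322% and 0.158% of all genes did not overlap. Per2 had log2 changes of 1.35, −0.24, −0.68 and −0.23 at 2, 4, 6 and 8 weeks, Cry1 of 0.81, −0.20, −0.58 and −0.19, and Wee1 of 1.22, −0.28, −0.25 and −0.01. Arntl gave −1.15, 0.00, −0.24 and −0.57, and Nr1d1 −0.88, 0.21, 0.31 and 0.05. The difference between the 2-week effect and the mean effect of the 3 later weeks was fitted over 40 libraries, and 0 of 14577 genes (0%) were called, with a lowest adjusted p of 1. An unadjusted p under 0.05 was reached by 185 genes (1.27%), 148 of them with a higher effect at 2 weeks (1.02%) and 37 with a lower one (0.254%). Clock genes made up 10 of these, 9 higher and 1 lower, led by Cry1 (difference 1.13, SE 0.29), Wee1 (1.40, SE 0.42) and Per2 (1.74, SE 0.62), with Nr1d1 as the lower one (−1.07, SE 0.48). Mock levels moved between weeks as well. In NCAC fat the median of Per2 was 26.1, 19, 14 and 12 TPM at 2, 4, 6 and 8 weeks (ranges 23.2 to 31.8, 2.33 to 39, 10.4 to 24.8 and 7.85 to 24.7 TPM). In mock fat it was 11.3, 22.1, 35.1 and 15.1 TPM over the same weeks (ranges 4.17 to 16.9, 4.89 to 46.6, 12.7 to 47.9 and 9.25 to 33.8 TPM). The lowest mock median and the highest NCAC median both fell at 2 weeks.

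**Figure D4:**
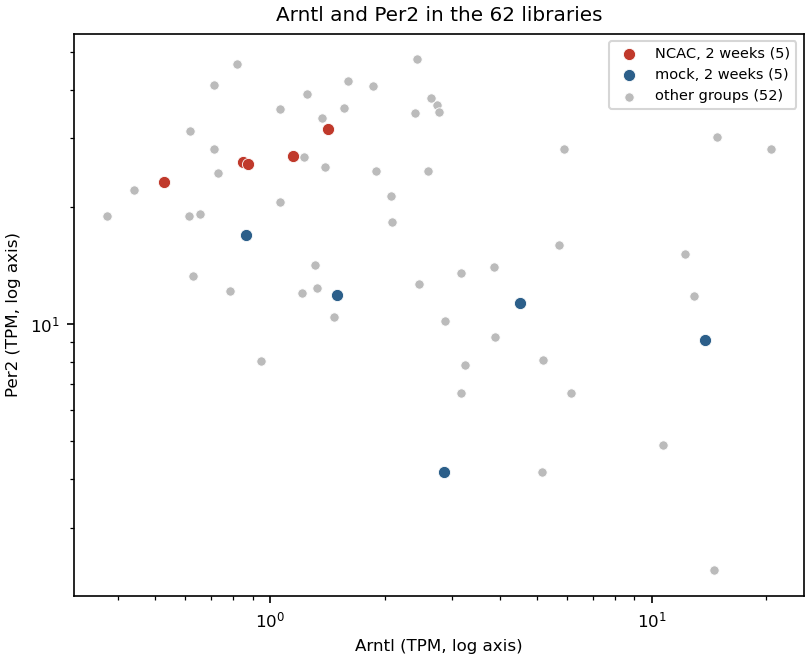
Per2 against Arntl (TPM, both axes logarithmic) in the 62 libraries, with NCAC at 2 weeks in red, mock at 2 weeks in blue and the other 52 libraries in grey. The 5 NCAC libraries sit together at 0.528 to 1.42 TPM of Arntl and 23.2 to 31.8 TPM of Per2, whereas the mock libraries run from 0.864 to 13.8 TPM of Arntl at 4.17 to 16.9 TPM of Per2.

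Fat of mice with CAC cells at 2 weeks spread over a range of clock levels, as mock fat did. Per2 lay between 23.2 and 31.8 TPM in NCAC fat and was at 16, 19, 8.06, 4.18 and 11.8 TPM in CAC fat. Arntl lay between 0.528 and 1.42 TPM in NCAC fat and was at 5.73, 0.374, 0.944, 5.17 and 12.9 TPM in CAC fat, and the clock balance averaged 3.07 ± 0.23 in NCAC fat, 2.28 ± 0.98 in CAC fat and 2.27 ± 0.83 in mock fat. CAC and mock fat overlapped for each of the 27 clock genes at 2 weeks, while 0.782% of all genes did not overlap. Fitted directly, NCAC against CAC at 2 weeks gave 0 called genes of 14572 (0%), a lowest adjusted p of 0.9224, and 528 genes with an unadjusted p under 0.05 (3.62%; 336 higher, 2.31%, and 192 lower, 1.32%, in NCAC fat, where 35.1% of all genes had a log2 change above 0). Clock genes made up 12 of these, 10 higher and 2 lower. Per2 differed by 1.26 (SE 0.33, exact p = 0.00794) and Nfil3 by 0.98 (SE 0.25, exact p = 0.00794), both without overlap between NCAC and CAC (0.762% of all genes, 0.535% above and 0.226% below), while Nr1d1 differed by −0.82 (SE 0.27, exact p = 0.0159) and Npas2 by −1.38 (SE 0.47, exact p = 0.0238). This comparison and the one with mock share the NCAC libraries.

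Genes that follow the clock or hormones of the day were examined as further lists. Of 14 rhythmic output genes, 5 had an unadjusted p under 0.05, all higher in NCAC fat, against 0.823% of all genes in that direction, and the median log2 change was 0.41 (−0.01 over all genes). Coq10b, which encodes a coenzyme Q binding protein of mitochondria, was at 71.4, 63, 59.8, 75.7 and 68.1 TPM in NCAC fat and at 31.3, 38.7, 39.5, 45.2 and 62.8 TPM in mock fat (log2 change 0.66, SE 0.17, exact p = 0.0159). Nampt, the rate-limiting enzyme of NAD salvage and a known clock target, averaged 108 ± 16.3 TPM in NCAC fat and 77.2 ± 25.3 TPM in mock fat (log2 change 0.53, SE 0.21, exact p = 0.0397). In both genes mock replicate 5 was the one mock library within the NCAC range.

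The list for the glucocorticoid and fasting response had 14 genes, of which 4 had an unadjusted p under 0.05 (Tsc22d3, Per1, Fkbp5 and Cebpd), all higher in NCAC fat, against 0.823% of all genes. The exact p of Cebpd was 0.0873 and misses 0.05. The list's median log2 change was 0.51, with 0.30 without mock replicate 3. Tsc22d3, the glucocorticoid-induced leucine zipper GILZ, was at 70.6, 185, 57.6, 72.4 and 97.8 TPM in NCAC fat and at 24.5, 32.6, 19.8, 32.1 and 53.2 TPM in mock fat, without overlap (log2 change 1.49, SE 0.33, exact p = 0.00794). It also stands on the rhythmic output list. Fkbp5, which the hormone induces and whose product binds its receptor with the chaperone complex, was at 28.4, 74.9, 20.3, 14.7 and 22.9 TPM in NCAC fat and at 7.77, 7.44, 4.68, 10.8 and 24.7 TPM in mock fat (log2 change 1.42, SE 0.46, exact p = 0.0317). NCAC replicate 2 was the highest library for both genes, and mock replicate 5 was the highest of the mock libraries. NCAC replicate 2 was also highest for Mt2 at 339 TPM, beside 16.7 to 30.7 TPM in the other NCAC libraries and 7.58 to 35.8 TPM in mock fat. Pdk4, a fasting-induced kinase that spares glucose, had overlapping groups, at 255, 73.1, 24.9, 24 and 62.6 TPM in NCAC fat and 46.4, 44.6, 40, 39.2 and 214 TPM in mock fat (log2 change 0.01, SE 0.66, exact p = 0.984). The body temperature list had 2 of 12 genes with an unadjusted p under 0.05, the heat shock genes Hsph1 (log2 change 0.66, SE 0.24, exact p = 0.0397) and Dnajb1 (0.41, SE 0.15, exact p = 0.0397), both higher in NCAC fat, against 0.823% of all genes. Without mock replicate 1 that count was 5. Cirbp, which is induced by cold and low in warmth, averaged 27.5 ± 9.58 TPM in NCAC fat and 42.5 ± 19.2 TPM in mock fat (log2 change −0.55, SE 0.34, exact p = 0.214). Rbm3, also induced by cold, had an exact p of 0.778. Of the 12 changes in the body temperature list, 11 were above 0 and 1 was below 0.

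By rule, the 6 genes with the lowest p and at least 10 TPM were named in each direction, and those outside these lists follow. In the higher direction they were Nkain1, which encodes a protein that interacts with the sodium pump, with 11.1 ± 1.56 TPM in NCAC fat and 6.2 ± 0.642 TPM in mock fat (log2 change 0.74, SE 0.14, exact p = 0.00794), and Map2k3, a kinase upstream of p38, with 58.3 ± 5.14 and 38.6 ± 6.0 TPM in NCAC and mock fat (log2 change 0.59, SE 0.13, exact p = 0.00794). Neither gene had overlapping groups. In the lower direction Klb, the FGF21 co-receptor beta-Klotho, was at 27.8, 23.4, 44, 32.5 and 41.2 TPM in NCAC fat and at 50.5, 62.5, 63.7, 64.1 and 49.2 TPM in mock fat, without overlap (log2 change −0.79, SE 0.18, exact p = 0.00794). Trp53i11 averaged 16.7 ± 3.81 TPM in NCAC fat and 33.1 ± 8.46 TPM in mock fat (log2 change −0.93, SE 0.22, exact p = 0.0238), and Glrx, a glutaredoxin that reverses oxidation of protein thiols, 31.4 ± 6.56 and 51.7 ± 12.7 TPM (log2 change −0.69, SE 0.20, exact p = 0.0159). Both overlapped between the groups.

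The other genes named by this rule in the lower direction are known from blood vessel lining. Cldn5, a tight junction protein of endothelium, was at 67, 62.2, 56, 61 and 79.3 TPM in NCAC fat and at 171, 112, 122, 158 and 77.4 TPM in mock fat (log2 change −0.92, SE 0.20, exact p = 0.0159). Only mock replicate 5 lay inside the NCAC range. Kdr, the VEGF receptor VEGFR2, averaged 42.0 ± 6.26 TPM in NCAC fat and 57.7 ± 5.8 TPM in mock fat (log2 change −0.46, SE 0.13, exact p = 0.0159), and Sox18, an endothelial transcription factor, 31.0 ± 3.78 and 45.1 ± 8.94 TPM (log2 change −0.51, SE 0.15, exact p = 0.0238). Of the 9 endothelial markers listed, 9 had a log2 change below 0, with a median of −0.27, and 2 (Kdr and Cdh5) had an unadjusted p under 0.05, against 0.782% of all genes in that direction. That count was 5 without NCAC replicate 4, with median-ratio scaling or with mitochondrial genes left out, 3 without mock replicate 3 or 5, and 1 without mock replicate 2 or 4, without NCAC replicate 2 or 3, or without both NCAC replicate 4 and mock replicate 1, the libraries with lymph node transcripts. Their summed level was 316 to 411 TPM in NCAC fat and 359 to 503 TPM in mock fat. In bulk tissue, fewer cells of a type and less RNA per cell cannot be told apart.

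Adipocyte genes gave no such difference. The 16 adipocyte markers summed to between 73249.8 and 102807 TPM in NCAC fat and between 52069.7 and 110770 TPM in mock fat, and 0 of 16 had an unadjusted p under 0.05. Adipoq, the adipokine adiponectin, averaged 4469 ± 805 TPM in NCAC fat and 4239.5 ± 1171 TPM in mock fat (log2 change 0.11, SE 0.23, exact p = 0.69). Lep, the satiety hormone leptin, was at 149.9, 1162, 311, 270.1 and 346 TPM in NCAC fat and at 182, 359, 161, 196 and 171 TPM in mock fat (log2 change 0.77, SE 0.45, exact p = 0.175), so most of the gap in means came from NCAC replicate 2. Pnpla2, the first lipase of fat breakdown, averaged 1848 ± 398 and 1544 ± 257 TPM in NCAC and mock fat, Fasn, the fatty acid synthase, 4196 ± 1339 and 4261 ± 711 TPM, and Scd1, a fatty acid desaturase, 13396 ± 1701 and 14075 ± 2181 TPM, with log2 changes of 0.24 (SE 0.20), −0.07 (SE 0.24) and −0.07 (SE 0.17). Ucp1, the uncoupling protein of brown and beige fat, ranged from 0.418 to 1348 TPM among NCAC libraries and from 2.08 to 919 TPM among mock libraries. A difference in Ucp1 of several log2 units would not be detectable against this spread (log2 change 0.04, SE 2.1).

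**Figure D5:**
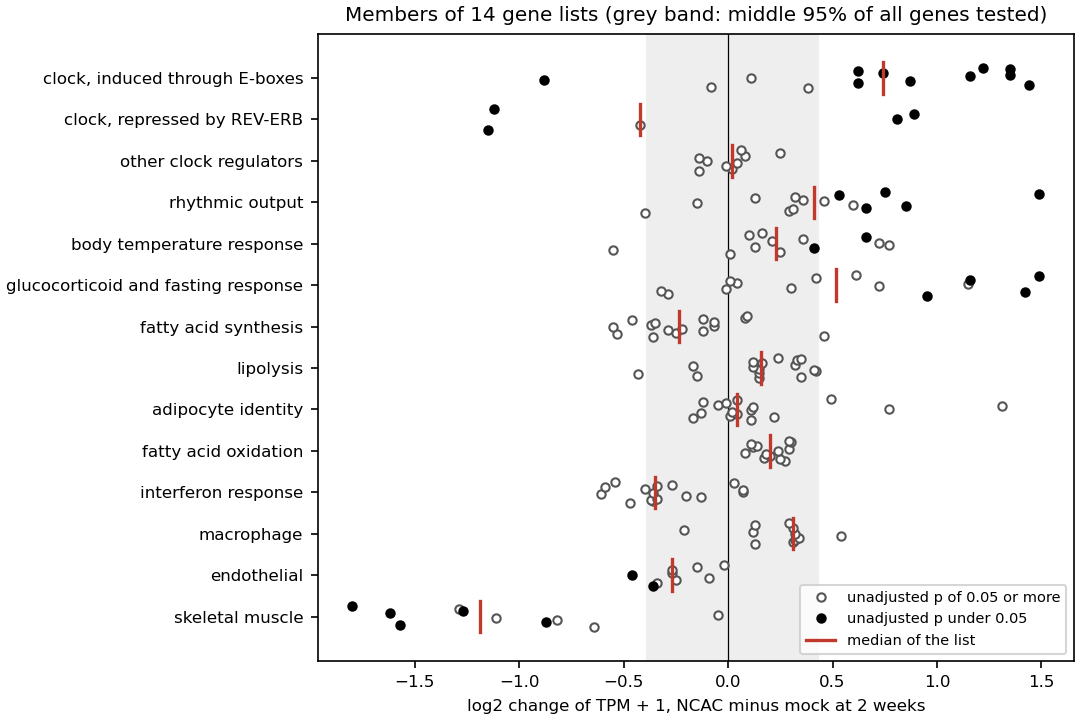
Log2 change of TPM + 1 (x axis), NCAC minus mock at 2 weeks, of the members of 14 gene lists (rows), filled where the unadjusted p is under 0.05, with the list's median as a red line and the middle 95% of all genes tested as a grey band. The E-box-driven clock genes have a median of 0.74, the skeletal muscle markers of −1.19, and adipocyte identity genes of 0.04.

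Of the lists on metabolism, lipolysis (16 genes, median log2 change 0.16), fatty acid oxidation (13, median 0.20), fatty acid synthesis (16, median −0.23), oxidative phosphorylation (20, median 0.11) and thermogenic adipocyte genes (12, median 0.03) had 0 members with an unadjusted p under 0.05. With single libraries left out, the thermogenic median ran from −0.39 without NCAC replicate 1 to 0.55 without mock replicate 5, and that of fatty acid oxidation from 0.02 to 0.38 without the same libraries. The members of fatty acid oxidation all had changes above 0, between 0.08 and 0.30 in the full comparison, and 13 of the 16 of fatty acid synthesis had changes below 0. Cholesterol synthesis had 1 of 14, against 1.61% of all genes, namely Hmgcs1, the HMG-CoA synthase of that pathway, at 88.6 ± 18.4 TPM in NCAC fat and 133 ± 43.8 TPM in mock fat (log2 change −0.55, SE 0.21, exact p = 0.0317). The cholesterol list had 1 higher and 0 lower members at an unadjusted p under 0.05 with median-ratio scaling. It had 0 higher and 3 lower with mitochondrial genes left out, and 2 higher and 2 lower without mock replicate 4. Immediate early genes (16, median 0.04), the unfolded protein response (14, 0.13), proliferation (15, −0.12) and extracellular matrix (20, −0.12) had 0 members past that p. The direction of these medians depended on single libraries. Without mock replicate 1 the median was 0.32 for extracellular matrix, 0.10 for proliferation and 0.35 for immediate early genes, and without NCAC replicate 4 it was −0.43, −0.20 and −0.17, with −0.03 for the unfolded protein response. Col1a1, a chain of type I collagen, was at 36.9, 75.5, 99.3, 431 and 93.5 TPM in NCAC fat and at 971, 118, 40.6, 70.7 and 50.4 TPM in mock fat, each group with 1 high library, NCAC replicate 4 and mock replicate 1.

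Immune and inflammatory genes had few members with a low p and medians that moved with single libraries. Interferon response genes had changes below 0 in 13 of 16 (median −0.35), macrophage markers above 0 in 10 of 11 (median 0.31), and 0 members of either list had an unadjusted p under 0.05. Over all genes 47.2% had changes above 0. Without NCAC replicate 4, 5 of the 16 interferon response genes were lower at that p (median −0.52), and without both lymph node libraries 4 were (median −0.45), while without NCAC replicate 2 the median was −0.12. The macrophage median ran from 0.11 without mock replicate 5 to 0.54 without mock replicate 1. Of 16 acute phase genes 1 had an unadjusted p under 0.05 (1.61% of all genes), Saa3, a serum amyloid A made in fat, with 38.6 ± 25.8 TPM in NCAC fat and 12.6 ± 4.91 TPM in mock fat (log2 change 1.37, SE 0.46, exact p = 0.0397). Itih4, an acute phase protease inhibitor, averaged 4.0 ± 0.679 and 4.25 ± 1.77 TPM in NCAC and mock fat. The neutrophil marker S100a9, a calprotectin subunit, was at 2.62, 2.03, 2.26, 3.35 and 3.6 TPM in NCAC fat and at 15.9, 17.2, 5.42, 7.22 and 3.74 TPM in mock fat, without overlap (log2 change −1.35, SE 0.36, exact p = 0.00794). The other neutrophil markers tested, S100a8, Csf3r and Retnlg, had changes from −0.50 to −0.03.

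Markers of tissue other than fat differed from library to library. The B cell and lymph node markers summed to 542 TPM in NCAC replicate 4 and 829 TPM in mock replicate 1, nearly all of it the lymph node chemokine Ccl21a (537 and 822 TPM), and to at most 91 TPM in the other 8 libraries. Without these 2 libraries the mean clock balance of NCAC fat exceeded that of mock fat by 0.48, against 0.81 with them. All 10 skeletal muscle markers tested had changes below 0 (median −1.19), 5 of them with an unadjusted p under 0.05 (0.782% of all genes were lower at that p), and they summed to 29.6 to 114 TPM in NCAC fat and 37 to 146 TPM in mock fat. With single libraries left out that count ran from 1 (without mock replicate 3 or 5) to 8 (without mock replicate 4), and it was 2 without mock replicate 1 or NCAC replicate 1, 3 or 5 and 3 without NCAC replicate 2. By the exact test Mylpf alone of these markers was under 0.05 (p = 0.0159), and Myh1 came next (p = 0.0556). Myh4 was at 0 in 7 of the 10 libraries and Pvalb in 6. Urothelial markers reached 186 TPM in NCAC replicate 2, and erythroid markers reached 10897 TPM in mock replicate 2. The 6 T cell markers listed summed to 0.549 to 2.96 TPM in NCAC fat and 1.43 to 2.86 TPM in mock fat, with Lck highest (at most 1.36 TPM), while Cd3e was at 0 in 3 of the 10 libraries and Cd8a in 5. Of the markers of B cells and lymph nodes (5 tested), T cells (2), fibroblasts (10), mesothelium (8), mammary epithelium (4), urothelium (7), erythroid cells (5), melanocytes (4) and ovary and uterus (3), 0 had an unadjusted p under 0.05. The 7 melanocyte markers listed summed to 6.58 to 12.5 TPM in NCAC fat and 7.4 to 16.8 TPM in mock fat. Tyr was at 0 in 9 of the 10 libraries, Tyrp1 in 8 and Mlana in 3, whereas Mitf (at most 11.4 TPM), Pmel (3.33 TPM), Dct (2.89 TPM) and Sox10 (1.95 TPM) were above 0 in each. Mitochondrially encoded transcripts took 27.6% to 44.4% of the TPM in NCAC fat and 27.1% to 42% in mock fat, and 11962 to 13558 genes reached 1 TPM in a library. Without both lymph node libraries 13 of 27 clock genes had an unadjusted p under 0.05 (10 higher, 3 lower), against 301 of 14570 genes. With mitochondrial genes left out 15 of 27 did (11 higher, 4 lower), against 441 of 15166. The part of the other differences in the clock results was not tested.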

How the data were processed

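RNA was extracted with Trizol and sequenced from stranded TruSeq mRNA libraries on an Illumina NovaSeq, per the labels' protocols, which also mention 3 weeks after LLC cells, a time point no sample carries. Per the submitters' processing notes the genome build was mm10; neither aligner, counting tool nor annotation is given in the sources used here. TPM of 47643 gene symbols were deposited, as the authors made them, with a sum of 1000000 in each library, so read depth is unknown and no counting interval is given. Reads of near-identical genes such as Hba-a1 and Hba-a2, and of overlapping genes, may have been split between copies.

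Values were transformed to log2(TPM + 1), which understates changes of low genes. The 14577 genes that averaged 0.5 TPM or more across all 62 libraries were kept, and 14574 varied in the comparison. limma 3.58.1 in R 4.3.3 was fitted to the 5 NCAC and 5 mock libraries (trend and robust prior, two-sided, Benjamini-Hochberg over all genes), and likewise for NCAC against CAC (5 each) and for the week difference (40 libraries). An exact permutation test, 5 libraries against 5, was added after the limma results were seen, for 358 list members and named genes; its p-values are not adjusted over them. The fits were checked on simulated data. Lists count members at an unadjusted p under 0.05 and are read against the same share of all genes. The members and all 32 lists were chosen with earlier results of these data known. Named genes are all clock list members (2 are counted but not reported here), in each direction the 6 genes with the lowest p and at least 10 TPM, since 0 were called, and 10 genes of fat biology; others named from lists or as markers were chosen after their values were seen. Alternatives were another pseudocount, filters, scaling, library weights, a replicate block, clock balance as covariate and each replicate left out; leaving out the libraries with lymph node transcripts was added after seeing the data. Coordinates come from GENCODE M21 (GRCm38) and promoter windows from RefSeq on GRCm38.p6.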

Additional observations from a re-analysis of the deposited data

Results flagged for a closer look

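Among the 90 groups of 5 libraries examined for a value far from the others (the named genes in NCAC and in mock fat at 2 weeks), 2 had one, where chance gives about 5%. In mock fat, Lep was at 359 TPM in replicate 2, and the other mock libraries lay between 161 and 196 TPM. Pdk4 was at 214 TPM in mock replicate 5, and the other mock libraries lay between 39.2 and 46.4 TPM.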

How the results depend on the processing

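NCAC against mock at 2 weeks gave 0 called genes in every setting tried except library weights, which gave 230 (2709 genes at an unadjusted p under 0.05). The week difference gave 0 except 204 with library weights. NCAC against CAC gave 0 except 11 with library weights, 1 without the lymph node libraries (Itih4, −3.87, adjusted p 0.01133 by limma) and 0 to 1 with single replicates left out (Cdsn, −4.36, without NCAC replicate 4). The largest library weight was that of mock replicate 4 (12.9). With single replicates left out, NCAC against mock had 157 to 395 genes at an unadjusted p under 0.05, the week difference 96 to 249, NCAC against CAC 291 to 1360, clock genes at that p 12 to 14, and the gap in clock balance 0.51 to 1.03. The count of clock genes was 10 with all 62 libraries in 1 fit and 15 with median-ratio scaling. Median-ratio scaling gave 517 genes at that p, leaving out mitochondrial genes 441 and no filter 406, against 234. With clock balance as a covariate 143 were below it. Of the lists with 0 members at that p, single replicates left out gave, in 1 direction, up to 5 (interferon response), 4 (erythroid), 2 (fatty acid synthesis, lipolysis and immediate early genes) or 1 in any other.

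Replicate numbers in NCAC and mock fat did not pair the samples (correlation of deviations −0.39, 0.19, 0.12, −0.38 and 0.09). With a replicate block, 0 genes were called and 222 had an unadjusted p under 0.05, with 14 clock genes; best matches by deviation were not the own number for 3 of the 5 replicates.

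Of 943 gene values under other settings, 868 kept direction and side of the threshold, 15 passed it, all with library weights, and 60 changed sign, in 14 genes. With single replicates left out these ranged from −0.04 to 0.30 (Nr1d2), −0.36 to 0.17 (Bhlhe41), −0.06 to 0.11 (Cry2), −0.01 to 0.19 (Rora), −0.09 to 0.07 (Csnk1d), −0.06 to 0.15 (Csnk1e), −0.15 to 0.17 (Timeless), −0.06 to 0.20 (Adipoq), −1.22 to 1.25 (Ucp1), −0.20 to 0.06 (Fasn), −0.16 to 0 (Scd1), −0.52 to 0.47 (Pdk4), −0.14 to 0.14 (Itih4) and −0.63 to 0.66 (Col1a1). Without the lymph node libraries the values were Nr1d2 −0.06, Cry2 0, Timeless −0.04, Adipoq −0.01, Fasn 0.07 and Col1a1 0.15. Without mitochondrial genes they were Cry2 0, Ucp1 −0.03 and Pdk4 −0.02. With library weights they were Cry2 −0.20, Rora −0.13, Csnk1d 0.03, Csnk1e −0.01, Adipoq 0, Scd1 0.27, Pdk4 −0.11 and Col1a1 0.40. Csnk1d was 0.01 with median-ratio scaling, Ucp1 −0.20 with a pseudocount of 0.1, and with clock balance as a covariate Adipoq was −0.16, Pdk4 −0.07 and Col1a1 0.93. The cause was not tested.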

Other observations

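Over the 62 libraries, the genes outside the clock lists whose log2 level followed Dbp most closely were Tmem120a (r = 0.64), Angptl2 (0.60), Ctdspl (0.59), Mfsd5 (0.57) and Slc1a5 (0.55), and those that ran most against it were Glrx (−0.61), Sqle (−0.59), Uck1 (−0.57), Sh3pxd2a (−0.56) and Mif4gd (−0.56), out of 7532 genes compared. These are Pearson correlations given as a description, since libraries of all arms and weeks share 1 scale to a fixed sum. Glrx is also among the genes with the lowest p in the lower direction at 2 weeks, where NCAC fat had the higher mean of Dbp. The libraries of that comparison are among the 62, so the correlation and the comparison are not independent.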
